A study of Homo sapiens with 18 samples.

Results

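The genes described here encode membrane organisers and sorting proteins with which cells build and release extracellular vesicles (EVs), small membrane-bound particles. They were listed by name: the tetraspanins CD63, CD9, CD81, CD82 and CD151, the sorting genes PDCD6IP, TSG101 and SDCBP, and the Rab GTPases RAB27A and RAB27B. Of these 10 genes, 9 were measured, each by a single probe set, among 18417 genes in all. PDCD6IP, which encodes the sorting adaptor ALIX, was not analysed here.

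The recipient cells were human umbilical vein endothelial cells (HUVEC), cultured lining cells of a vein, obtained from ATCC. Their mRNA was profiled on 18 Affymetrix whole-transcript arrays, 3 for each of 6 groups. The 4 EV groups received EVs for 3 days: CD63+ EVs of Jurkat, MHC1+ EVs of Jurkat, CD63+ EVs of JinB8 and MHC1+ EVs of JinB8. A further group received beads with immunoglobulin G (IgG) for 3 days, and the last was untreated, with no time given. Jurkat is a human T cell leukaemia line, and JinB8 is a Jurkat derivative without the surface receptor CD47. CD63+ and MHC1+ name the antigen by which EVs were captured on beads, the tetraspanin CD63 or the class 1 histocompatibility complex. The concentrated media of the flasks had been pooled before the EVs were purified. Whether replicate arrays came from separate cultures is not stated. The p-values thus cover the spread between these arrays, which may be technical. For 5 of the 6 arrays taken as JinB8, the descriptive name has a different JinB number from the bracketed name, which was used.

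Tetraspanins are membrane-spanning proteins that gather integrins and other proteins into patches, and CD63, CD9 and CD81 are the proteins most often used to recognise EVs. In the late endosome, vesicles bud inwards with the help of the ESCRT complexes, to which TSG101 belongs, or through syntenin, the product of SDCBP, which links syndecans to ALIX. RAB27A and RAB27B then direct the vesicle-filled endosomes to the cell surface. In endothelial cells CD63 also lies in Weibel-Palade bodies, the storage granules of von Willebrand factor, and RAB27A is found on those granules. The arrays measured the mRNA of the recipient HUVEC culture as a whole, where fewer cells of a type and less RNA per cell cannot be told apart.

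Replicate 3 of the bead group and replicate 3 of the untreated group stood apart from the other arrays. Their median correlations with the other arrays over all probe sets were 0.636 and 0.649, while the lowest correlation among the other 16 arrays was 0.932. The SD of the log2 signal over all probe sets of an array, called the array SD below, was 1.566 for bead replicate 3 and 1.565 for untreated replicate 3, against 2.005 to 2.251 in the 16. Endothelial markers averaged 9.24 to 9.42 in the EV arrays, 9.31 to 9.46 in the 4 concordant control arrays and 6.41 to 7.26 in the 2 discordant ones, on the log2 scale over 12 of 12 listed markers. The 13 measured of 14 T cell markers averaged 4.13 to 4.67 in the EV arrays, 4.19 to 4.38 in the 4 concordant controls and 5.35 to 5.40 in the discordant ones. Markers of other cell types were likewise higher on the discordant arrays than on the 4 concordant controls, at 5.39 to 5.67 against 4.60 to 4.78 for fibroblasts and smooth muscle, 6.21 to 6.30 against 5.20 to 5.26 for epithelium and 5.34 to 5.48 against 4.91 to 5.02 for monocytes. The T cell receptor component CD3D lay at 3.41 to 3.98 in the EV arrays and at 3.57 to 3.84 in the 4 concordant controls. Differences from controls are therefore given on all 18 arrays and on the 16.

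The promoters of CD82 and TSG101 are shown because of their signal values, described below. CD82 was the single member whose EV arrays all lay above all control arrays, and TSG101 had the widest range of group means. Each is the 250 bases before the RefSeq start on build GRCh38.p14, CD82 at chr11:44565413-44565662 on the plus strand and TSG101 at chr11:18526943-18527192 on the minus strand, with matches to the GC box (GGGCGG on either strand) in capitals.
CD82: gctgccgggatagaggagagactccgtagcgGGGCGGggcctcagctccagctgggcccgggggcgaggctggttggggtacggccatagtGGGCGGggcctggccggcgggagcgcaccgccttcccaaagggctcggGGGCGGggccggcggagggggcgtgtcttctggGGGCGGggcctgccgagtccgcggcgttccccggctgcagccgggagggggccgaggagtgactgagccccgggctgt
TSG101: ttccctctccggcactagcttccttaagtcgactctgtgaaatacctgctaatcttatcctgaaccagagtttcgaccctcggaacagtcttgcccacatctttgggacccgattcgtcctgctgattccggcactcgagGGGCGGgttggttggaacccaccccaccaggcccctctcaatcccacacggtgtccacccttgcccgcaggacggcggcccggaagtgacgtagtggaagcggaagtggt
The CD82 window held 4 GC box matches and had a GC content of 77.2%, and the TSG101 window held 1 match at 58.8%. Among 35116 windows of this length, 42.64% held at least 1 GC box. The E-box CACGTG (in 6.345% of windows), the sterol element TCACNCCAC (0.8828%), the CCAAT box CCAAT (32.01%) and the TATA box TATAAA (10.72%) were also searched on both strands and had no match in either window. The promoter table held 6 of the 9 measured members. Such a match describes letters and not a site that was shown to be bound.

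No measured member was called in any of the 14 comparisons, a call being an adjusted p under 0.05 over the 18417 genes in limma's moderated test. This held on 18 arrays and on 16 in the comparisons with controls, and on the 12 EV arrays in the comparisons between EV groups. For any difference among the 6 groups, 0.0109% of all genes were called on 18 arrays and 0.233% on 16. With Jurkat CD63+ EVs against beads 0.00543% of all genes were called on 18 arrays and on 16, with Jurkat MHC1+ EVs 0.0% on both, and with JinB8 CD63+ EVs 0.00543% on 18 and 0.0923% on 16. JinB8 against Jurkat EVs over both captures called 0.0217% of all genes. With all EV groups together against IgG beads, 0 of 9 members were called, and the share called of all genes was 0.00543% on 18 arrays and 0.0434% on 16. At an unadjusted p under 0.05, that comparison held 1 of 9 members on 18 arrays, beside 3.83% of all genes, and 1 of 9 on 16, beside 3.21%, CD82 in both. The secreted glycoprotein gene STC1, for scale, was 1.27 higher on the log2 scale with EVs than with beads (SE 0.14, adjusted p = 0.0041, 18 arrays).

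**Figure D1:**
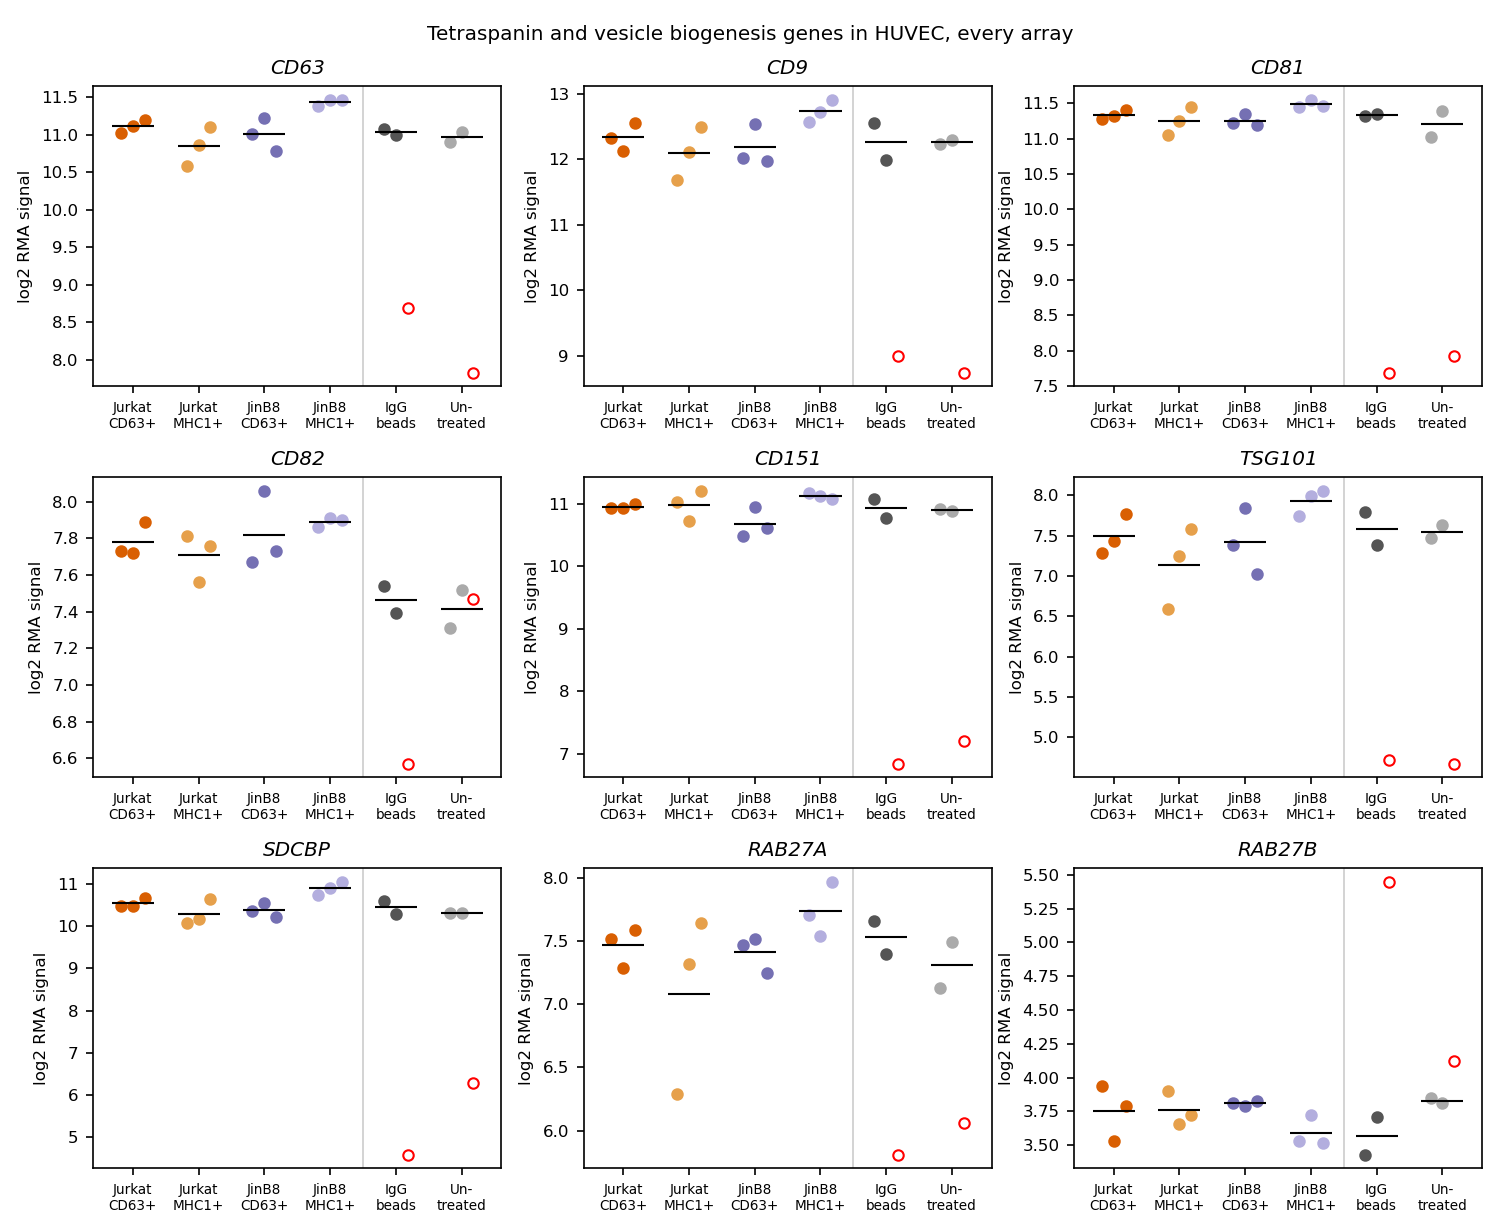
Log2 RMA signal (y axis of each panel, with its own scale) of the 9 measured genes on every array, by group (x axis); bars are group means over the 16 concordant arrays, and open red circles are replicate 3 of the bead and untreated groups. CD82 lies at 7.56 or above on all EV arrays and at 7.54 or below on all control arrays.

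CD82, a tetraspanin that restrains cell movement and was first known as a metastasis suppressor, was the member that separated EV cultures from controls. Its log2 signal was 7.73, 7.72 and 7.89 with Jurkat CD63+ EVs, 7.81, 7.56 and 7.76 with Jurkat MHC1+ EVs, 7.67, 8.06 and 7.73 with JinB8 CD63+ EVs, and 7.86, 7.91 and 7.90 with JinB8 MHC1+ EVs. It was 7.54, 7.39 and 6.57 with IgG beads and 7.31, 7.52 and 7.47 in untreated cells. All 12 EV arrays lay above all 6 control arrays, by a narrow margin at the nearest pair, 7.56 against 7.54. This pattern was found in 10 of the 18417 genes (0.0543%), and in 17 (0.0923%) where the EV arrays were set against the 4 concordant controls alone. CD82 was singled out here after its values were seen.

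Against beads, the CD82 difference with all EV groups together was 0.63 on 18 arrays (SE 0.17, 95% interval 0.26 to 1.0, limma adjusted p = 0.52). On 16 arrays it was 0.33 (SE 0.12, interval 0.08 to 0.59, limma adjusted p = 1.0). Over the 16 arrays the EV mean was 0.36 above the mean of the 4 concordant controls, 1.28-fold on the linear scale. With the fit adjusted for the array SD the difference from beads was 0.36 (SE 0.11, interval 0.13 to 0.59, limma adjusted p = 0.35). The interval lay above 0 in each of these fits, and CD82 was not called in any. By single EV group on 16 arrays, the difference from beads was 0.25 with Jurkat MHC1+ EVs, with an interval of -0.06 to 0.55 that held 0. It was 0.31 with Jurkat CD63+ EVs (0.01 to 0.62), 0.35 with JinB8 CD63+ EVs (0.05 to 0.65) and 0.42 with JinB8 MHC1+ EVs (0.12 to 0.73).

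The 3 tetraspanins most used as EV markers did not separate from controls. CD63 was 11.02, 11.12 and 11.20 with Jurkat CD63+ EVs, 10.58, 10.87 and 11.11 with Jurkat MHC1+ EVs, 11.01, 11.22 and 10.79 with JinB8 CD63+ EVs, and 11.38, 11.47 and 11.47 with JinB8 MHC1+ EVs. It was 11.08, 11 and 8.69 with beads and 10.90, 11.04 and 7.83 in untreated cells. The EV arrays overlapped the 4 concordant controls, with 7 of 12 above their range and 3 below it, and both discordant arrays were low.

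CD9, which associates with integrins and is abundant at the cell surface, was 12.33, 12.13 and 12.55 with Jurkat CD63+ EVs, 11.68, 12.11 and 12.49 with Jurkat MHC1+ EVs, 12.02, 12.54 and 11.98 with JinB8 CD63+ EVs, and 12.57, 12.72 and 12.91 with JinB8 MHC1+ EVs. It was 12.55, 11.99 and 9.0 with beads and 12.24, 12.29 and 8.74 in untreated cells. Here 3 of 12 EV arrays, all with JinB8 MHC1+ EVs, lay above the 4 concordant controls and 2 lay below them. CD81, a hepatitis C virus receptor, was 11.05 to 11.55 on the EV arrays (median 11.33) and 11.02 to 11.39 on the 4 concordant controls. Its discordant arrays stood at 7.69 with beads and 7.92 untreated. CD151, which binds laminin-binding integrins, was 10.48 to 11.21 on the EV arrays (median 10.97), 10.78 to 11.08 on the 4 concordant controls, and 6.84 with beads and 7.21 untreated on the discordant ones.

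Among the sorting genes, TSG101, the ESCRT-I subunit that binds ubiquitinated cargo, was 7.29, 7.44 and 7.77 with Jurkat CD63+ EVs, 6.59, 7.25 and 7.58 with Jurkat MHC1+ EVs, 7.39, 7.84 and 7.02 with JinB8 CD63+ EVs, and 7.75, 7.99 and 8.06 with JinB8 MHC1+ EVs. It was 7.79, 7.39 and 4.71 with beads and 7.47, 7.63 and 4.67 in untreated cells. Within the EV groups its arrays spread by up to 0.99, so that all groups but JinB8 MHC1+ held arrays on both sides of the lowest concordant control.

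SDCBP was 10.49, 10.49 and 10.68 with Jurkat CD63+ EVs, 10.07, 10.18 and 10.64 with Jurkat MHC1+ EVs, 10.37, 10.56 and 10.21 with JinB8 CD63+ EVs, and 10.75, 10.91 and 11.06 with JinB8 MHC1+ EVs. It was 10.61, 10.29 and 4.58 with beads and 10.31, 10.31 and 6.27 in untreated cells. The discordant bead array differed by -5.79 from the mean of the 4 concordant controls, the widest such gap among the members.

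RAB27A was 7.52, 7.29 and 7.59 with Jurkat CD63+ EVs, 6.29, 7.32 and 7.64 with Jurkat MHC1+ EVs, 7.47, 7.52 and 7.25 with JinB8 CD63+ EVs, and 7.71, 7.54 and 7.97 with JinB8 MHC1+ EVs. It was 7.66, 7.40 and 5.81 with beads and 7.13, 7.49 and 6.06 in untreated cells. A single array, Jurkat MHC1+ replicate 1 at 6.29, lay below the 4 concordant controls. RAB27B, the second isoform, was 3.52 to 3.94 on the EV arrays (median 3.75) and 3.43 to 3.85 on the 4 concordant controls. It was the one member that stood higher on the discordant arrays, at 5.45 with beads and 4.12 untreated. No detection calls were analysed, so whether RAB27B was expressed was not tested.

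Bead replicate 3 set the size of the difference from beads for most members, and leaving out that array alone gave the same differences as the 16 arrays. With all EV groups together, the difference was 2.04 for SDCBP on 18 arrays (SE 0.99) and 0.09 on 16 (SE 0.15). It was 1.37 for CD151 on 18 arrays and 0.01 on 16, and 1.16 for CD9 on 18 arrays and 0.07 on 16. CD63 differed by 0.85 on 18 arrays (SE 0.56) and 0.06 on 16 (SE 0.13, interval -0.22 to 0.35). Of the rest, 4 members had the opposite sign on 16 arrays. TSG101 was at 0.87 on 18 arrays and -0.09 on 16, RAB27A at 0.47 and -0.10, CD81 at 1.21 and -0.0046, and RAB27B at -0.47 and 0.16. The median over the 9 members was 0.87 on 18 arrays and 0.06 on 16, beside medians of -0.06 and 0.01 over all genes. All adjusted p were 0.52 on 18 arrays and 1.0 on 16.

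**Figure D2:**
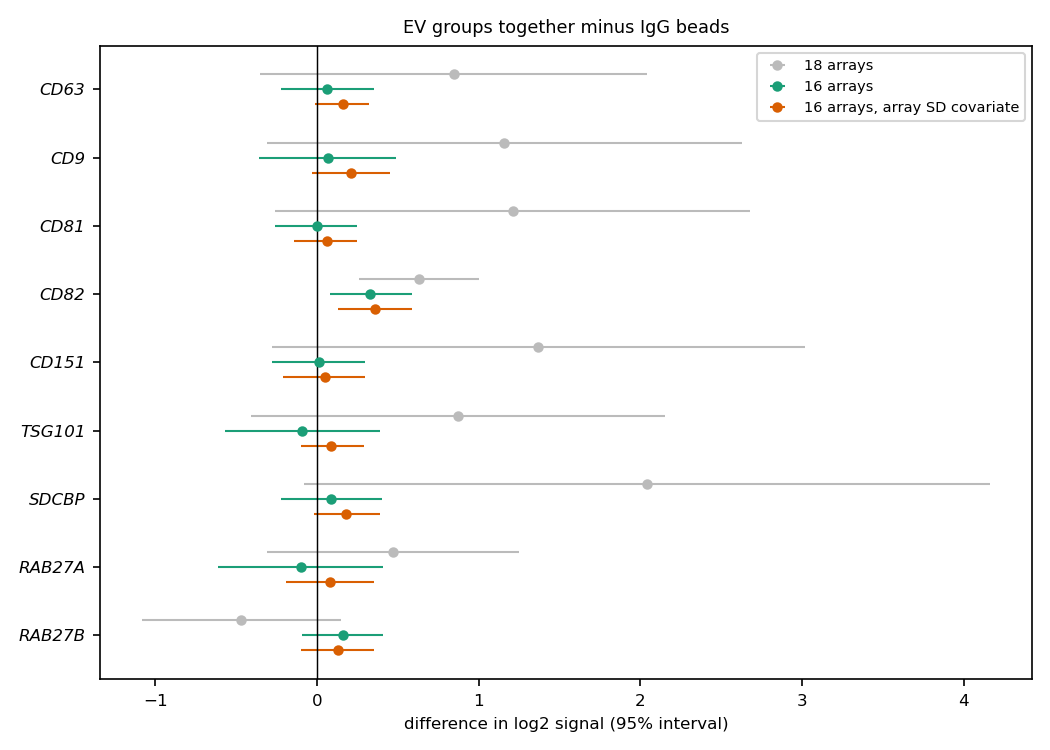
Difference in log2 signal between all EV groups together and IgG beads (x axis) for each gene (y axis), with 95% intervals, from 18 arrays (grey), 16 arrays (green) and 16 arrays adjusted for the array SD as covariate (orange). On 16 arrays the differences run from -0.10 to 0.33, and the interval of CD82 alone lies above 0.

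Between beads and untreated cells 0 of 9 members were called by limma, with 0.0% of all genes called on 18 and on 16 arrays. At an unadjusted p under 0.05 there were 204 genes on 18 arrays and 188 on 16, with no member among them. The differences, beads minus untreated, ran from -0.26 for RAB27B to 0.22 for RAB27A on 16 arrays, with SEs from 0.16 to 0.31. The widest interval on 16 arrays was -0.45 to 0.88, for RAB27A. On 18 arrays they ran from -0.47 for SDCBP (SE 1.26, interval -3.15 to 2.21) to 0.34 for CD63 (SE 0.70). RAB27B had the opposite sign there, at 0.27 (SE 0.37). The sign also differed for SDCBP, at 0.14 on 16 arrays, for CD82, at 0.05 on 16 and -0.26 on 18, and for CD151, at 0.03 and -0.10.

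Among the EV groups, cells with JinB8 MHC1+ EVs had the highest mean of 8 of the 9 members, all but RAB27B. CD63 averaged 11.44 ± 0.05 there, 11.11 ± 0.09 with Jurkat CD63+ EVs, 11 ± 0.22 with JinB8 CD63+ EVs and 10.85 ± 0.27 with Jurkat MHC1+ EVs (SD, n = 3 each). SDCBP averaged 10.91 ± 0.15 there, 10.55 ± 0.11 with Jurkat CD63+ EVs, 10.38 ± 0.17 with JinB8 CD63+ EVs and 10.30 ± 0.30 with Jurkat MHC1+ EVs. Below the first group the neighbouring groups overlapped for both genes. In CD63, CD9 and SDCBP all 3 JinB8 MHC1+ arrays lay above the other 13 of the 16 arrays, 3 of 9 members beside 2.78% of all genes.

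Against IgG beads, JinB8 MHC1+ EVs gave 0 of 9 members called, with 0.0434% of all genes called on 18 arrays and 0.212% on 16. On 16 arrays the difference was 0.46 for SDCBP (SE 0.18), 0.42 for CD82 (SE 0.14) and 0.40 for CD63 (SE 0.16), with limma adjusted p from 0.61 to 0.80. On 18 arrays the same differences were 2.42 (SE 1.26), 0.72 (SE 0.22) and 1.19 (SE 0.70), each with a limma adjusted p of 0.46. In 5 of 9 members (CD63, CD9, CD81, CD82 and SDCBP) the JinB8 MHC1+ arrays lay above all 4 concordant controls, beside 8.36% of all genes. These comparisons share their control arrays with those above.

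JinB8 against Jurkat EVs within the MHC1+ capture compares HUVEC given EVs of cells without CD47 with HUVEC given those of the parent line. The differences on the 12 EV arrays were 0.79 for TSG101 (SE 0.25), 0.66 for RAB27A (SE 0.27), 0.64 for CD9 (SE 0.21), 0.61 for SDCBP (SE 0.16) and 0.59 for CD63 (SE 0.15), each with a 95% interval above 0. CD81 differed by 0.23, CD82 by 0.18, CD151 by 0.14 and RAB27B by -0.17, with intervals that held 0. The limma adjusted p ran from 0.13 to 0.51, so 0 of 9 members were called, with 0.233% of all genes called. At an unadjusted p under 0.05 there were 5 of 9 members, beside 25.9% of all genes. The JinB8 arrays lay above the Jurkat arrays without overlap in 5 of 9 members (CD63, CD9, CD82, TSG101 and SDCBP), beside 15.5% of all genes. All members but RAB27B had signals above at least 68.9% of probe sets on each of the 16 arrays. The shares over all genes, here and in the other comparisons, are not matched for signal.

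A single array decided that call. Without Jurkat MHC1+ replicate 3, which left 2 arrays in that group, 5 of 9 members were called, with 23.9% of all genes called. CD63 was then 0.72 higher with JinB8 MHC1+ EVs (limma adjusted p = 0.018), SDCBP 0.78 (0.017), CD9 0.84 (0.023), TSG101 1.01 (0.023) and RAB27A 0.94 (0.027). The 2 arrays that remained had array SDs of 2.005 and 2.140, and the one left out had 2.214. Leaving out any other array gave 0 of 9.

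The array SD moved with this result. It was 2.213 to 2.251 with JinB8 MHC1+ EVs, 2.048 to 2.189 with JinB8 CD63+ EVs, 2.163 to 2.201 with Jurkat CD63+ EVs, 2.005 to 2.214 with Jurkat MHC1+ EVs, and 2.154 to 2.223 in the 4 concordant controls. In Jurkat MHC1+, JinB8 CD63+ and JinB8 MHC1+ cultures, 6 of 9 members had their lowest value on the array with the lowest SD of the group. With Jurkat CD63+ EVs 4 of 9 did. Some members had their highest value on that array instead. These were RAB27B with Jurkat CD63+, Jurkat MHC1+ and JinB8 CD63+ EVs, CD82 with Jurkat MHC1+ EVs and CD151 with JinB8 MHC1+ EVs. The share of all genes with either pattern was not computed. In the fit adjusted for the array SD, the JinB8 minus Jurkat difference within MHC1+ was 0.28 for CD63 (interval 0.04 to 0.52), 0.31 for SDCBP (0.03 to 0.58), 0.19 for TSG101 (-0.08 to 0.45), 0.18 for CD9 (-0.12 to 0.48) and 0.07 for RAB27A (-0.31 to 0.45). The limma adjusted p in that fit ran from 0.76 to 1.0, with 0.185% of all genes called. The array SDs of these MHC1+ groups overlapped only between 2.213 and 2.214, so this fit cannot fully tell group and array SD apart. The adjustment was chosen after the data were seen, and the part of the array SD in the result was not otherwise tested.

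**Figure D3:**
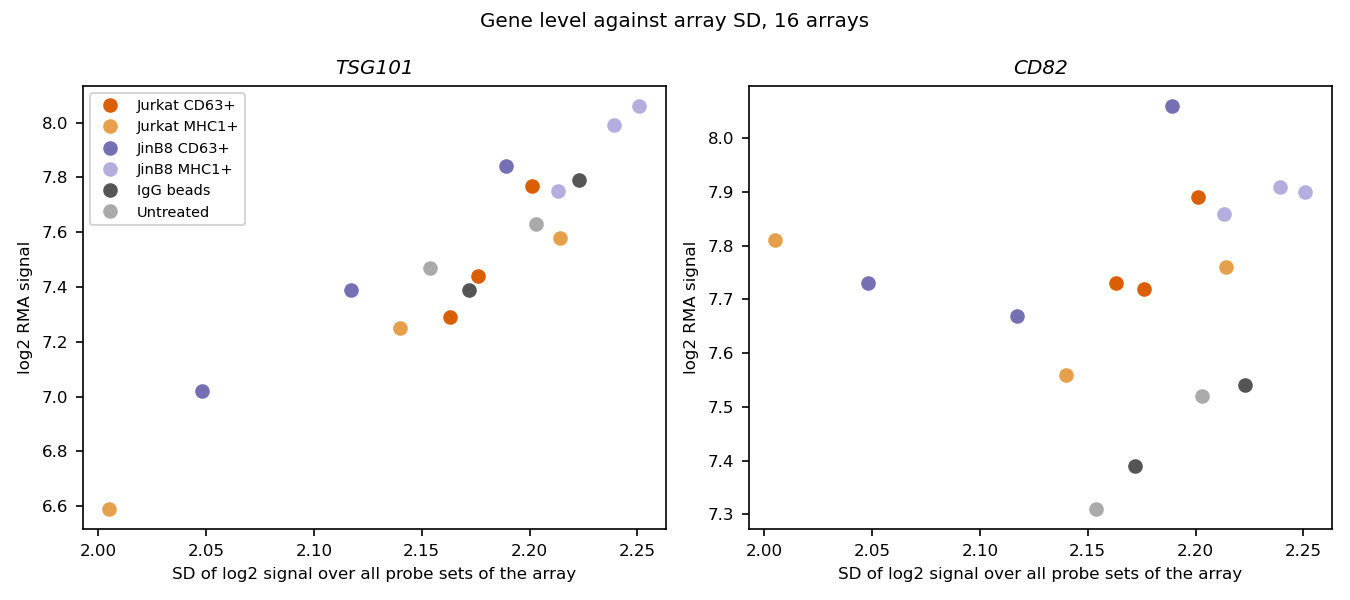
Log2 RMA signal (y axis) of TSG101 (left) and CD82 (right) against the SD of the log2 signal over all probe sets of the array (x axis) on the 16 concordant arrays, coloured by group. TSG101 runs from 6.59 on the array of lowest SD, 2.005, to 8.06 on the array of highest SD, 2.251, while the EV arrays of CD82, at 7.56 or more, lie above the 4 control arrays.

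CD63+ against MHC1+ EVs of JinB8 shares the 3 JinB8 MHC1+ arrays with the comparison above, here as the group subtracted. CD9 differed by -0.55 (SE 0.21), SDCBP by -0.53 (SE 0.16), TSG101 by -0.51 (SE 0.25), CD63 and CD151 by -0.44 each (SE 0.15 each), RAB27A by -0.33, CD81 by -0.23, CD82 by -0.07 and RAB27B by 0.22. The limma adjusted p ran from 0.29 to 0.76, with 0 of 9 members and 0.0923% of all genes called. The CD63+ arrays lay below the MHC1+ arrays without overlap in 6 of 9 members (CD63, CD9, CD81, CD151, SDCBP and RAB27A), beside 12.8% of all genes, and above them in 1, RAB27B, beside 14.5%. Adjusted for the array SD, with 0.0923% of all genes called, CD9 differed by -0.08, CD63 by -0.12, SDCBP by -0.21 and CD151 by -0.33. TSG101 and RAB27A then changed sign, to 0.11 and 0.27. The array SDs of these groups did not overlap, so group and array SD cannot be told apart here.

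**Figure D4:**
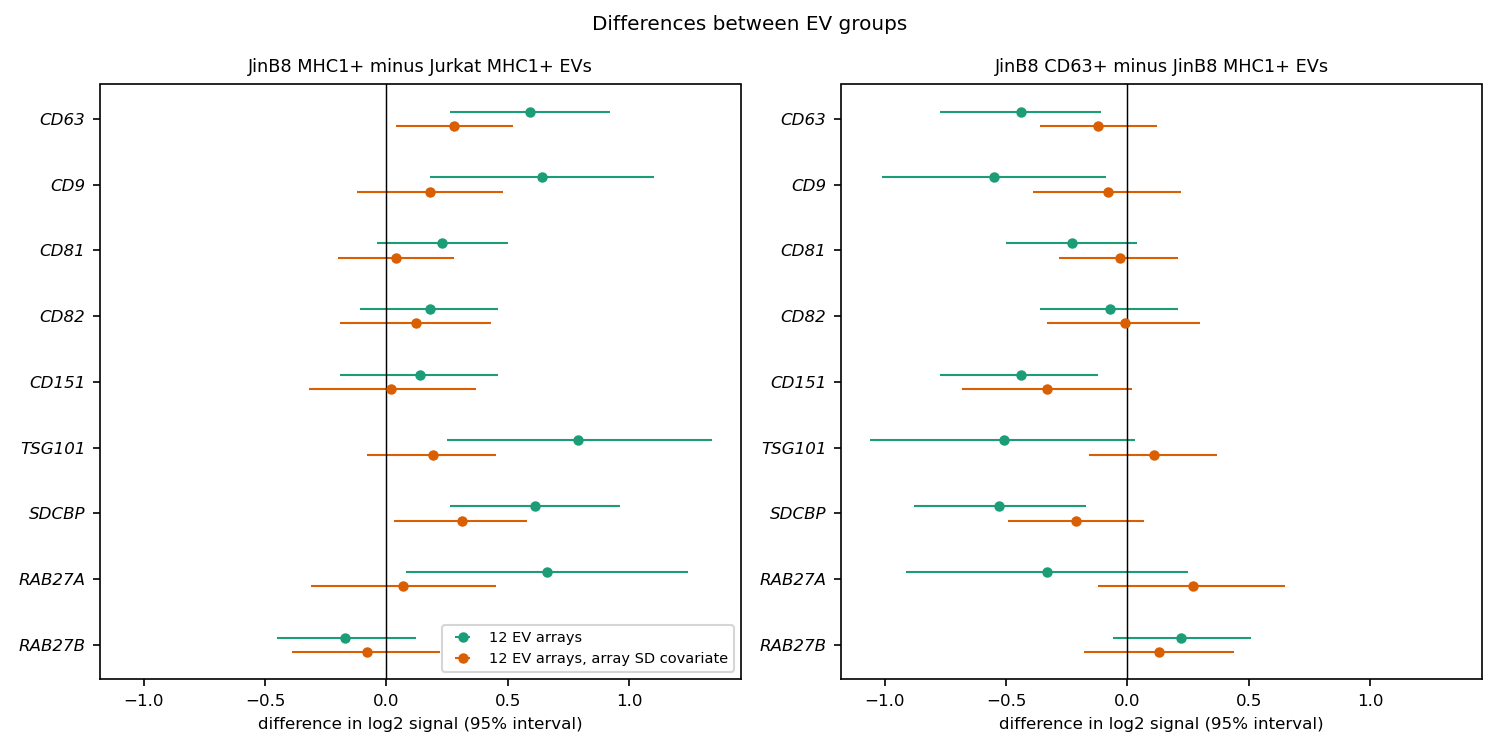
Difference in log2 signal (x axis) for each gene (y axis) between JinB8 MHC1+ and Jurkat MHC1+ EVs (left) and between JinB8 CD63+ and JinB8 MHC1+ EVs (right), with 95% intervals, from the 12 EV arrays (green) and adjusted for the array SD as covariate (orange). In the left panel TSG101 stands at 0.79 without the adjustment and at 0.19 with it, and RAB27A at 0.66 and 0.07.

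In HUVEC given Jurkat EVs, the CD63+ minus MHC1+ differences ran from -0.04 to 0.38 (limma adjusted p 0.48 to 0.99). There 0.0% of all genes were called, and 1522 genes had an unadjusted p under 0.05, with no member among them. The interaction of line and capture tests whether the capture difference itself differed between JinB8 and Jurkat. It was -0.87 for TSG101 (SE 0.35), -0.79 for CD9 (SE 0.30), -0.78 for SDCBP (SE 0.23) and -0.70 for CD63 (SE 0.22), each with a limma adjusted p of 0.19. No member was called, with 0.0217% of all genes called. Adjusted for the array SD the interaction was 0.06 for TSG101, which changed sign, -0.08 for CD9, -0.31 for SDCBP and -0.22 for CD63, each with a limma adjusted p of 1.0 and with 0.0109% of all genes called. Without Jurkat MHC1+ replicate 3, these 4 members were called (adjusted p 0.035 to 0.047), with 16.4% of all genes called. Within CD63+, JinB8 and Jurkat EVs gave member differences from -0.27 to 0.05, with limma adjusted p from 0.91 to 0.96, 0.0% of all genes called, and 617 genes at an unadjusted p under 0.05 with no member among them.

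Over the 12 EV arrays the members moved in unequal ways. CD63, CD9, CD81, TSG101, SDCBP and RAB27A, a set picked after the values were seen, had pairwise Pearson correlations from 0.79 to 0.97 in 15 pairs, while these arrays also share the array SD. CD82 correlated with RAB27A at 0.23 and with CD9 at 0.60, and RAB27B correlated with CD63 at -0.59 and with CD82 at -0.03. The genes most like 3 members over the 16 arrays, by Pearson correlation, were RMDN1 (0.978), CTSL (0.974) and ATG5 (0.972) for TSG101. For CD9 they were PSMB5 (0.979), PLEKHB2 (0.978) and SARAF (0.973), and for RAB27A they were OAT (0.966), SLC11A2 (0.963) and BBS2 (0.961). None of these was a member. The 16 arrays differ in array SD as well, and its part in these correlations was not tested.

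Other genes of vesicle formation were examined in 7 lists with 140 genes, of which 134 were measured. In none of the 14 comparisons was any of the 134 called, on 18 or on 16 arrays or on the 12 EV arrays. With all EV groups together against beads on 16 arrays, the median difference was 0.04 over 27 other tetraspanins, -0.13 over 12 tetraspanin partner proteins, -0.02 over 28 ESCRT and VPS4 genes, and 0.02 over 11 genes of the syntenin and syndecan pathway with the sphingomyelinases. It was -0.07 over 25 Rab GTPases and fusion genes of vesicle release, -0.03 over 14 Rab27 effectors and -0.10 over 17 late endosome and vesicle cargo genes, beside 0.01 over all genes. On 18 arrays the same medians were -0.08, 0.97, 0.37, 0.05, 0.64, -0.14 and 1.04, beside -0.06 over all genes.

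In the syntenin and sphingomyelinase list, SMPD2 and HPSE had the smallest unadjusted p. SMPD2, which encodes a neutral sphingomyelinase, an enzyme class that makes ceramide, was 4.8, 5.10 and 5.09 with Jurkat CD63+ EVs and 4.71, 5.07 and 4.74 with JinB8 CD63+ EVs. It was 5.61, 5.47 and 5.43 with Jurkat MHC1+ EVs and 5.42, 5.48 and 5.45 with JinB8 MHC1+ EVs. The CD63+ and MHC1+ arrays thus did not overlap, but the share of all genes without such overlap was not computed. The SMPD2 signal was near the median of all probe sets, which was 4.864 to 5.13 on the EV arrays. Whether SMPD2 was expressed was not tested. Beads gave 5.35, 5.02 and 5.20, and untreated cells gave 5.46, 5.34 and 5.39, so the control arrays overlapped those of both captures. The CD63+ minus MHC1+ difference over both lines was -0.56 (SE 0.09, limma adjusted p = 0.16), with 0.0163% of all genes called. Adjusted for the array SD it was -0.55 (limma adjusted p = 0.012), with 3.06% of all genes called.

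HPSE encodes heparanase, which trims the heparan sulfate chains of syndecans. It was 8.41, 8.49 and 8.57 with Jurkat CD63+ EVs, 7.28, 7.95 and 8.11 with Jurkat MHC1+ EVs, 8.67, 8.86 and 8.63 with JinB8 CD63+ EVs, and 8.40, 8.78 and 8.44 with JinB8 MHC1+ EVs. It was 7.95, 7.87 and 5.15 with beads and 7.51, 8.04 and 4.59 in untreated cells. Against beads with all EV groups together, the difference was 1.39 on 18 arrays (limma adjusted p = 0.52), 0.48 on 16 (limma adjusted p = 1.0) and 0.60 on 16 adjusted for the array SD (limma adjusted p = 0.032, 0.282% of all genes called). In that adjusted fit, NPC1, which carries cholesterol out of late endosomes, differed by 0.52 (limma adjusted p = 0.046). Without the adjustment NPC1 differed by 1.85 on 18 arrays (SE 0.78, limma adjusted p = 0.52) and by 0.34 on 16 (limma adjusted p = 1.0). LAMP3, of the same late endosome list, went the other way and was not called in any of these fits. It differed by -0.45 on 18 arrays, -0.44 on 16 and -0.41 on 16 adjusted for the array SD (limma adjusted p = 0.52, 0.99 and 0.37). With JinB8 CD63+ EVs against beads, the adjusted fit gave 1.10 for HPSE (limma adjusted p = 0.00092) and 0.79 for NPC1 (limma adjusted p = 0.0094), with 0.434% of all genes called. Neither was called without the adjustment. HPSE was then at 1.73 on 18 arrays and 0.81 on 16 (limma adjusted p = 0.87 and 0.36), and NPC1 at 1.90 on 18 and 0.38 on 16 (limma adjusted p = 0.87 and 0.77).

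TSPAN12, a tetraspanin that aids norrin signalling in retinal vessels, had the smallest p among the other tetraspanins. It averaged 7.16 ± 0.43 with JinB8 CD63+ EVs, 8.07 ± 0.16 with JinB8 MHC1+ EVs, 7.81 ± 0.38 with Jurkat CD63+ EVs and 7.28 ± 0.48 with Jurkat MHC1+ EVs (SD, n = 3 each). Its interaction of line and capture was -1.44 (SE 0.38, limma adjusted p = 0.19), and -0.51 adjusted for the array SD (limma adjusted p = 1.0). VWF, the granule protein stored beside CD63, was 7.05, 6.97 and 7.03 with JinB8 MHC1+ EVs, 7.53, 7.76 and 5.94 with beads and 7.06, 7.58 and 5.55 in untreated cells. The JinB8 MHC1+ difference from beads was -0.05 on 18 arrays (SE 0.46, limma adjusted p = 0.93) and -0.62 on 16 (SE 0.17, limma adjusted p = 0.30), and on 16 adjusted for the array SD it was -0.67 (limma adjusted p = 0.029, 1.08% of all genes called). With all EV groups together the VWF difference from beads was 0.07 on 18 arrays and -0.50 on 16 (limma adjusted p = 0.72), and with JinB8 CD63+ EVs it was 0.06 on 18 and -0.51 on 16 (limma adjusted p = 0.55). On 16 arrays it was -0.55 with Jurkat MHC1+ EVs (limma adjusted p = 0.47) and -0.30 with Jurkat CD63+ EVs (limma adjusted p = 1.0), and on 18 arrays 0.02 and 0.27.

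For CD63+ against MHC1+ EVs over both lines, adjusted for the array SD, 9 of the 134 genes were called, beside 3.06% of all genes. The 7 higher with CD63+ EVs in that fit were ADAM17, CD46, CHMP1B, EXOC2, HPSE, NPC1 and RAB5A. ADAM17 encodes a sheddase regulated by tetraspanins, and CD46 a complement regulator. CHMP1B is an ESCRT-III subunit gene, EXOC2 an exocyst gene and RAB5A an early endosome Rab gene. The 2 lower were SMPD2 and IFITM1, an interferon-induced membrane protein. No measured tetraspanin or vesicle biogenesis gene of the original list was among those called in that fit. Without the adjustment none of the 134 genes was called, and the 7 differed over both lines by 0.16 (EXOC2) to 0.44 (HPSE). With Jurkat EVs alone they then differed by 0.47 (CD46) to 0.71 (HPSE). With JinB8 EVs alone all but HPSE, at 0.18, were then lower with CD63+ EVs, from -0.22 (ADAM17) to -0.06 (RAB5A).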

How the data were processed

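HUVEC RNA was hybridised to 18 Affymetrix whole-transcript arrays. The authors made the deposited log2 values with Affymetrix Expression Console and its RMA method, per the submitters' processing notes. For both, a version is not given in the sources used here. That they are on the log2 scale was read from their range. The RNA kit of the sample labels differs from that of the series design. Arrays carry no read depth, so the array number limits precision.

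Of 33297 probe sets, 12083 had no symbol and 1754 several in the platform annotation. The 19460 with 1 symbol gave 18417 genes, each by its probe set of highest mean (769 genes had several). A model with 1 mean per group was fitted with limma 3.58.1 in R 4.3.3 (lmFit, eBayes; two-sided), on 18 arrays for comparisons with controls and on the 12 EV arrays between EV groups. The Benjamini-Hochberg adjustment ran over 18417 genes. Intervals are 95%. The fit was tested on simulated data. Tables used pandas 2.3.3 and numpy 2.4.6 under Python 3.11.15, and figures matplotlib 3.10.9.

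Members and gene lists were chosen with earlier results of these data known. All members are named. Of the other lists, the rule named genes called without overlap or, with none called, up to 2 a list with the smallest unadjusted p, a selection of which is given. Likeness was computed for the 3 members with the widest range of group means. NPC1, VWF, ADAM17, CD46, EXOC2, RAB5A and IFITM1 were named after their values were seen, and STC1 is given for scale. Groups follow the bracketed sample names, with replicates numbered in accession order. Alternatives were 16 and 15 arrays, 11 EV arrays, untreated cells as control, leaving out the lowest 25% of genes, all probe sets, trend and robust options, quantile normalization again, median centring, only the groups compared and each array left out. Adjustment for the array SD as covariate, and untreated cells as control on 16 arrays, were added after seeing the data.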

Additional observations from a re-analysis of the deposited data

How the results depend on the processing

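The count of 0 members called held in all 135 recounts under other settings and in 208 of 210 with 1 array left out. In JinB8 against Jurkat EVs within MHC1+ the count ranged from 0 to 5 over the arrays left out, and in the interaction of line and capture from 0 to 4, both highest without Jurkat MHC1+ replicate 3. Of the single differences, 16 changed sign under another setting, and the causes were not tested. For all EV groups against beads, 16 arrays gave -0.0046 for CD81, -0.09 for TSG101, -0.10 for RAB27A and 0.16 for RAB27B; 15 arrays gave -0.02, -0.0034 and 0.14 for TSG101, RAB27A and RAB27B. With untreated cells as control on 16 arrays TSG101 was -0.05, and adjusted for the array SD RAB27B was 0.13. Quantile normalization again gave -0.07, -0.07 and -0.08 for CD81, CD82 and CD151 in JinB8 against Jurkat EVs within MHC1+, and 0.13 and 0.12 for CD81 and CD82 in CD63+ against MHC1+ EVs of JinB8. There the adjustment for the array SD gave 0.11 for TSG101 and 0.27 for RAB27A. With 1 array left out, the ranges that crossed 0 against beads were -0.0046 to 1.83 for CD81, -0.09 to 1.45 for TSG101, -0.10 to 0.82 for RAB27A and -0.85 to 0.16 for RAB27B, each reaching its sign change without bead replicate 3. CD82 in CD63+ against MHC1+ EVs of JinB8 ranged from -0.19 to 0.004. No paired analysis was possible because the replicate numbers were given in accession order and pair no arrays.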
